A study of Nothobranchius furzeri with 10 samples.

Results

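A set of 49 genes was followed whose read counts divided 10 liver libraries into JG74-78 and JG80-84 by a wide margin. The genes were chosen by these same values. The lowest log2 CPM in one set of libraries had to exceed the highest in the other by more than 1 log2 unit, in either direction. CPM is the count per 1000000 counted reads, scaled with edgeR (TMM, prior count of 2). The 49 genes were found among 14013 genes with at least 1 CPM in at least 5 libraries, out of 26739 in the deposited table. Of the 49, 39 were higher in JG74-78 and 10 were higher in JG80-84. The separation itself is therefore a description, and it is given without a test.

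Each library was made from liver RNA of 10-week-old males of GRZ, an inbred strain of Nothobranchius furzeri. All 10 carry the same label of swim-tunnel exercise, so JG74-78 and JG80-84 do not differ in any labelled strain, age, sex, tissue or treatment. The names are the numbers in the sample titles, which run without a break in each set and skip 1 number between them. The labels do not say what the numbers stand for, nor whether separate fish gave the libraries. No library here is labelled as coming from a resting fish. Whether JG74-78 and JG80-84 differ in a treatment or batch that the labels do not give was not tested. In whole liver, fewer cells of a type and less RNA per cell cannot be told apart.

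Nothobranchius furzeri, the turquoise killifish, is a short-lived annual fish of temporary ponds, and GRZ is its most widely used inbred laboratory strain. In a swim tunnel a fish has to swim against a water current. The liver of a fish stores glycogen and lipid, makes most plasma proteins and clears foreign compounds, and in many bony fishes it also holds islands of exocrine pancreas. The identifiers in the table are not paired with gene names, and 0 of the 49 matched the reference gene table, so no gene product or pathway is named and the genes are ordered by direction and size.

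Counted reads per library ran from 13806555 (JG75) to 35599186 (JG78) in JG74-78 and from 16888685 (JG84) to 39405713 (JG81) in JG80-84. Depth, detected genes and the share of the 10 most abundant genes did not pass an exact two-sided permutation test between the sets, with p-values of 0.722, 0.468 and 0.778. The TMM factor was 0.945 ± 0.0676 in JG74-78 and 1.06 ± 0.0654 in JG80-84 (exact permutation p = 0.0397, adjusted p = 0.0992 over 5 measures). The level of short genes relative to long genes, as a median log2 deviation, was -0.05 ± 0.08 in JG74-78 and 0.08 ± 0.06 in JG80-84 (exact permutation p = 0.0397, adjusted p = 0.0992). The TMM factor and this contrast did not pass after adjustment. With each library left out in turn, the contrast passed only without JG78, at 0.09 unlike the others of JG74-78. It then differed by -0.17 log2 units (exact permutation, adjusted p = 0.0397). Leaving out the library that runs against the difference favours a small p. The adjustment over 5 measures does not cover the choice of library, so this pass is not counted as a result. The part of these measures in the separation was not tested. The smallest p that this test can give is 0.00794.

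In all, 16.2% of the 14013 genes had values that did not overlap between JG74-78 and JG80-84. Genes higher in JG74-78 made up 6.6% and genes higher in JG80-84 made up 9.58%. Beyond a gap of 1 log2 unit the share was 0.35%, with 0.278% higher in JG74-78 and 0.0714% higher in JG80-84. These last shares are the members themselves, and nothing is read from them. The median gap of the members was 1.26 log2 units. A gap above 2 log2 units was found in 6 genes, all higher in JG74-78. The difference of the means exceeded 4-fold in 32 of the 49 and 10-fold in 8.

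**Figure D1:**
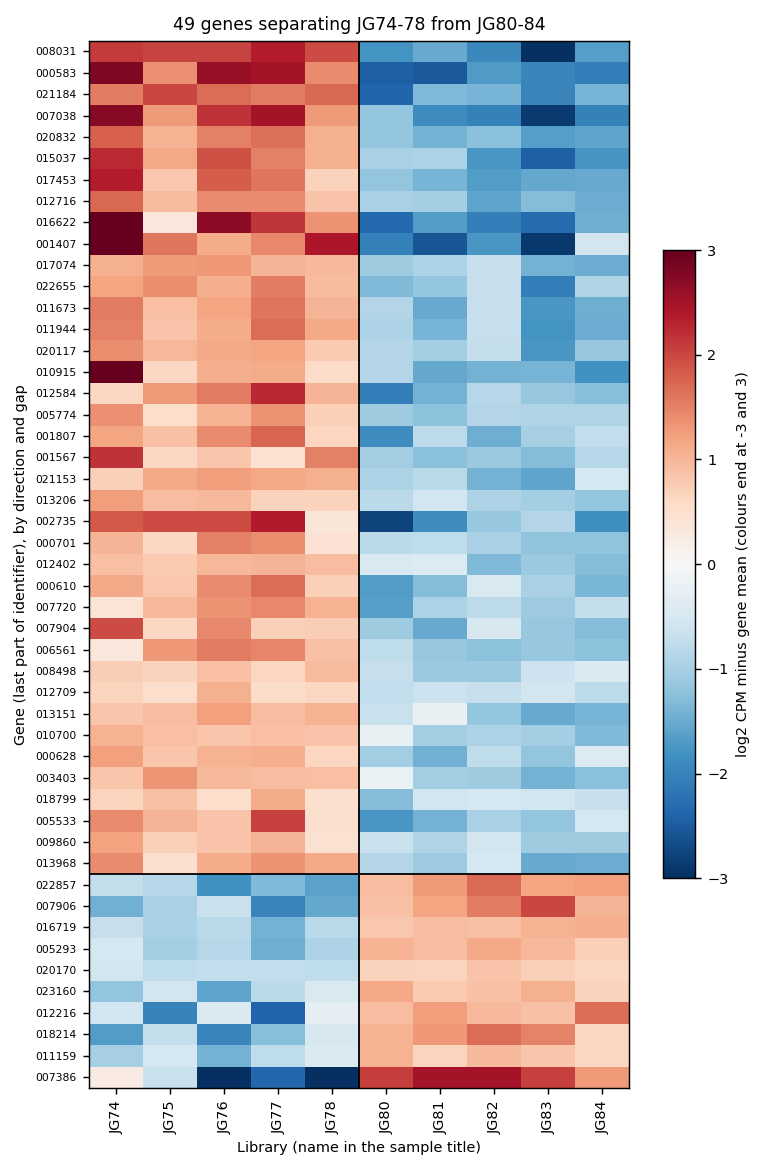
Log2 CPM of each of the 49 genes in each of the 10 libraries, as the difference from the gene's own mean over the libraries. Rows are genes, the 39 higher in JG74-78 above the 10 higher in JG80-84, each block ordered by gap from wide to narrow, and columns are libraries. The colour changes side between JG78 and JG80 in every row, but the rule does not fix on which side of the gene mean a library lies. In Nfu_g_1_007386, JG74 (9.91 log2 CPM) lies above the gene mean of 9.66, on the side of JG80-84. The shades within a block differ from library to library.

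The widest gap belonged to Nfu_g_1_008031. Its log2 CPM was 10.74, 10.67, 10.67, 10.995 and 10.59 in JG74, JG75, JG76, JG77 and JG78, against 6.85, 7.14, 6.7, 5.12 and 6.99 in JG80, JG81, JG82, JG83 and JG84. The JG74-78 values lay within a narrow band, and JG83 was the low one of JG80-84. The counts behind them were 49487, 23262, 48190, 58632 and 52266 reads in JG74-78 and 4003, 6216, 4086, 1048 and 2104 reads in JG80-84. The means were 10.73 ± 0.15 in JG74-78 and 6.56 ± 0.82 in JG80-84 (SD, n = 5 each), a difference of 4.17 ± 0.37 log2 units (SE) or 18.1-fold and a gap of 3.46.

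Nfu_g_1_000583 had the largest difference of means in the set, 4.29 ± 0.34 log2 units (SE) or 19.5-fold, at a much lower level. It had 257, 47, 234, 210 and 116 reads in JG74 to JG78, against 6, 7, 13, 8 and 4 reads in JG80 to JG84. The gene was thus close to the detection limit in JG80-84, where its log2 CPM was -2.06, -2.15, -1.33, -1.59 and -1.7, while JG74-78 gave 3.17, 1.75, 3.0, 2.88 and 1.81. Its fold depends on the prior count more than that of an abundant gene. The gene reached 1 CPM in the JG74-78 libraries only, so it was lost when any of them was left out and the filter applied anew. JG75 and JG78 were the low libraries of JG74-78, and JG75, the lower of them, lay 3.08 log2 units above JG82, the highest JG80-84 library.

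Nfu_g_1_021184 resembled the first gene in its evenness. Its log2 CPM was 5.93, 6.4, 6.08, 5.95 and 6.13 in JG74-78 and 2.01, 3.08, 3.02, 2.43 and 3.0 in JG80-84, a 10.5-fold difference with a gap of 2.85. The JG74-78 libraries differed among themselves by less than those of JG80-84, with SDs of 0.19 and 0.47 log2 units. Nfu_g_1_007038 was the most abundant of the 39 genes per length, at 1620.1 ± 623 RPKM (reads per kilobase of gene per 1000000 counted reads) in JG74-78 and 115 ± 50.8 RPKM in JG80-84 (SD, n = 5 each). Its log2 CPM was 11.26, 9.82, 10.72, 11.04 and 9.82 in JG74-78 and 7.36, 6.64, 6.52, 5.66 and 6.51 in JG80-84, which is 15.9-fold. JG75 and JG78 were low within JG74-78 in this gene too, and JG83 was the lowest library.

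Nfu_g_1_020832 had log2 CPM of 6.3, 5.54, 6.02, 6.16 and 5.56 in JG74-78 and 3.33, 3.07, 3.24, 2.84 and 2.9 in JG80-84, a 7.14-fold difference. Nfu_g_1_015037 had 6.55, 5.48, 6.22, 5.82 and 5.38 in JG74-78 and 3.34, 3.36, 2.56, 1.87 and 2.53 in JG80-84, which is 8.92-fold. In both genes JG74 was the highest library and JG83 the lowest. Nfu_g_1_017453 had 3.3, 1.75, 2.76, 2.54 and 1.64 in JG74-78 and -0.24, -0.47, -0.73, -0.59 and -0.58 in JG80-84, or 7.57-fold, and Nfu_g_1_012716 had 3.42, 2.66, 3.13, 3.11 and 2.54 in JG74-78 and 0.72, 0.68, 0.12, 0.41 and 0.2 in JG80-84, or 5.83-fold. These weaker genes were again highest in JG74, and both were lower in JG75 and JG78 than in the other JG74-78 libraries.

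Within the 10 widest genes of this direction, Nfu_g_1_016622 and Nfu_g_1_001407 were the most uneven. Nfu_g_1_016622 had log2 CPM of 8.16, 5.14, 7.49, 6.95 and 6.15 in JG74-78 and 2.47, 3.13, 2.75, 2.49 and 3.33 in JG80-84, and its difference of 3.94 ± 0.55 log2 units (SE) carries an SE larger than that of the genes above. Nfu_g_1_001407 had 6.93, 5.34, 4.86, 5.18 and 6.15 in JG74-78 and 1.71, 1.16, 1.99, 0.84 and 3.18 in JG80-84, with a difference of 3.92 ± 0.55 (SE). JG75 came closest to JG80-84 in Nfu_g_1_016622, and JG76 and JG84 came closest to each other in Nfu_g_1_001407.

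**Figure D2:**
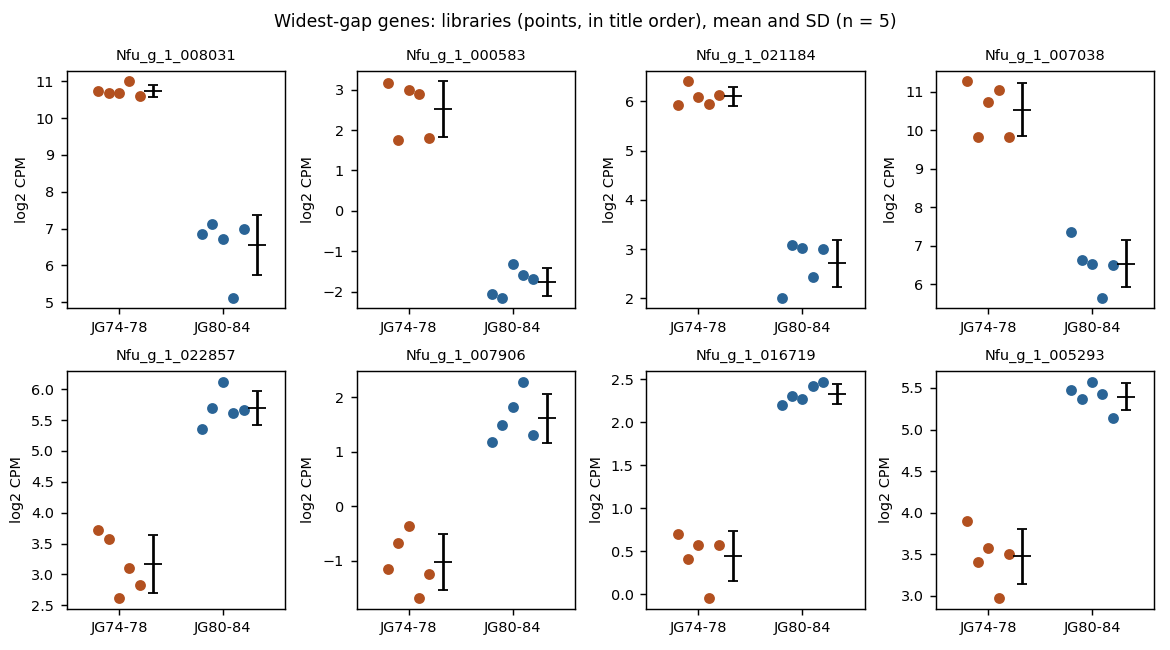
Log2 CPM of the 4 genes with the widest gap in each direction, genes higher in JG74-78 in the upper row and genes higher in JG80-84 in the lower row. Points are libraries in the order of their titles, and the bar beside them is the mean with its SD (n = 5). Each panel has its own vertical axis, which does not start at 0, and the gap runs from 1.24 log2 units in Nfu_g_1_005293 to 3.46 in Nfu_g_1_008031.

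The other 29 genes higher in JG74-78 had gaps of 1.0 to 1.65 log2 units and differences of 2.59-fold to 10.6-fold, with a median of 4.58-fold. Their mean levels spanned 0.74 to 9.39 log2 CPM in JG74-78 and -1.39 to 7.20 in JG80-84. The difference exceeded 4-fold in 17 of the 29. Nfu_g_1_002735 was the one above 10-fold, with 6.22, 6.35, 6.35, 6.76 and 4.74 log2 CPM in JG74-78 and 1.6, 2.52, 3.26, 3.52 and 2.53 in JG80-84. JG78 stood well below the other 4 libraries of JG74-78 in this gene, so its gap was 1.22 despite a 10.6-fold difference of means. Among abundant genes of this group, Nfu_g_1_011673 had 224 ± 34.4 RPKM in JG74-78 and 45.6 ± 14 RPKM in JG80-84 (SD, n = 5 each), and Nfu_g_1_013968 had 204 ± 35.5 RPKM in JG74-78 and 51.2 ± 14.5 RPKM in JG80-84 (SD, n = 5 each). Nfu_g_1_013968 was also the member nearest to the limit.

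Some of the 29 stood out by their steadiness within JG74-78 rather than by size. Nfu_g_1_010700 had log2 CPM of 2.79, 2.66, 2.57, 2.65 and 2.6 in JG74-78, an SD of 0.08, and 1.52, 0.72, 0.81, 0.73 and 0.41 in JG80-84. Nfu_g_1_012402 had 2.98, 2.84, 3.07, 3.07 and 2.99 in JG74-78, an SD of 0.10, and 1.6, 1.64, 0.74, 0.95 and 0.76 in JG80-84. In both, JG80-84 was the more variable set, with JG80 highest in Nfu_g_1_010700 and JG80 and JG81 highest in Nfu_g_1_012402. Nfu_g_1_010915 showed the reverse, with 6.44, 3.39, 3.88, 3.9 and 3.36 in JG74-78 and 1.9, 1.23, 1.36, 1.37 and 0.95 in JG80-84. JG74 alone stood far above in that gene, and without it the other JG74-78 libraries lay at 3.36 to 3.90.

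The 10 genes higher in JG80-84 had smaller gaps, from 1.04 to 1.63 log2 units, and differences of 2.67-fold to 17.8-fold. Nfu_g_1_022857 had the widest gap, with 3.72, 3.57, 2.62, 3.1 and 2.83 log2 CPM in JG74-78 and 5.35, 5.7, 6.12, 5.62 and 5.67 in JG80-84. Nfu_g_1_007906 was weak, with 11, 8, 21, 7 and 12 reads in JG74-78 and 76, 121, 136, 145 and 40 reads in JG80-84. Its log2 CPM was -1.16, -0.67, -0.37, -1.69 and -1.25 in JG74-78 and 1.17, 1.49, 1.82, 2.29 and 1.31 in JG80-84, a difference of -2.64 ± 0.31 (SE). The highest JG74-78 library was JG76 and the lowest JG80-84 library was JG80.

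All 10 genes had a larger SD within JG74-78 than within JG80-84, as had 18 of the 39 genes of the other direction and 53.4% of all genes. In Nfu_g_1_020170 the 2 SDs were nearly equal, at 0.0893 in JG74-78 and 0.0889 in JG80-84. JG74-78 is also the set in which the 10 genes were low, and the part of level in the SDs was not tested. Nfu_g_1_016719 and Nfu_g_1_020170 had the smallest SEs of this direction. Nfu_g_1_016719 had log2 CPM of 0.7, 0.41, 0.57, -0.04 and 0.57 in JG74-78 and 2.2, 2.3, 2.27, 2.42 and 2.47 in JG80-84, a difference of -1.89 ± 0.14 (SE). Nfu_g_1_020170 had 0.54, 0.33, 0.36, 0.36 and 0.32 in JG74-78 and 1.79, 1.75, 1.94, 1.82 and 1.71 in JG80-84, a difference of -1.42 ± 0.06 (SE), the smallest SE of all 49. Each set of 5 libraries thus formed a tight cluster in Nfu_g_1_020170. Nfu_g_1_005293 had 3.9, 3.41, 3.58, 2.98 and 3.51 in JG74-78 and 5.48, 5.36, 5.57, 5.42 and 5.14 in JG80-84, and JG74 and JG84 came nearest to each other.

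Nfu_g_1_023160 and Nfu_g_1_011159 followed much the same course across the libraries, more closely within JG74-78 than within JG80-84. Nfu_g_1_023160 had log2 CPM of 3.65, 4.28, 3.25, 4.03 and 4.37 in JG74-78 and 5.98, 5.62, 5.71, 5.89 and 5.51 in JG80-84, and Nfu_g_1_011159 had 2.79, 3.25, 2.36, 3.01 and 3.34 in JG74-78 and 4.81, 4.44, 4.75, 4.61 and 4.39 in JG80-84. JG76 was the lowest library and JG78 the highest of JG74-78 in both. Nfu_g_1_018214 shared that order within JG74-78, at 5.69, 6.65, 5.38, 6.07 and 6.87 in JG74-78 and 8.41, 8.66, 9.03, 8.85 and 7.98 in JG80-84. Deviations from the means of JG74-78 and of JG80-84 correlated at r = 0.96 between Nfu_g_1_023160 and Nfu_g_1_011159, 0.85 between Nfu_g_1_018214 and Nfu_g_1_011159 and 0.83 between Nfu_g_1_023160 and Nfu_g_1_018214 (n = 10 libraries). Between Nfu_g_1_023160 and Nfu_g_1_011159, r was 0.995 within JG74-78 and 0.811 within JG80-84 (n = 5 each). The values with Nfu_g_1_018214 rested mainly on JG74-78. With Nfu_g_1_011159 and Nfu_g_1_023160 in turn, r was 0.966 and 0.972 within JG74-78 but 0.506 and 0.350 within JG80-84 (n = 5 each).

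Nfu_g_1_012216 had log2 CPM of 6.68, 5.25, 6.82, 4.85 and 6.99 in JG74-78 and 8.18, 8.5, 8.23, 8.12 and 8.93 in JG80-84. JG75 and JG77 were low within JG74-78 in that gene, and JG84 was the highest library. Nfu_g_1_007386 was the most abundant of all 49 by reads. It had 27731, 7327, 1028, 4522 and 3276 reads in JG74-78 and 118473, 201797, 179077, 100493 and 32817 reads in JG80-84, or 9.91, 9.0, 5.12, 7.3 and 6.6 log2 CPM in JG74-78 and 11.74, 12.16, 12.16, 11.7 and 10.95 in JG80-84. The JG74-78 libraries differed widely among themselves (SD 1.91 log2 units), with JG74 high and JG76 low, so a 17.8-fold difference of the means left a gap of 1.04.

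By level per length, the members were spread widely. Mean RPKM over the 10 libraries ran from 0.354 in Nfu_g_1_012709 to 867.7 in Nfu_g_1_007038, with a median of 6.0 over the 49, against 4.36 over all 14013 genes. It exceeded 10 in 18 members and was under 1 in 8. After Nfu_g_1_007386, at 73 ± 77.9 RPKM in JG74-78 and 848 ± 267 RPKM in JG80-84 (SD, n = 5 each), the most abundant members higher in JG80-84 were Nfu_g_1_012216 and Nfu_g_1_018214. Nfu_g_1_012216 had 32.8 ± 18.2 RPKM in JG74-78 and 154 ± 32.8 RPKM in JG80-84 (SD, n = 5 each). Nfu_g_1_018214 had 12.6 ± 5.8 RPKM in JG74-78 and 73.9 ± 19.8 RPKM in JG80-84 (SD, n = 5 each). No member was absent from a set: the lowest count in any library was 4 reads, in Nfu_g_1_000583 in JG84, and 0 members had 3 or fewer reads throughout JG74-78 or JG80-84.

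The 39 genes higher in JG74-78 together took 0.587 ± 0.0942% of the counted reads in JG74-78 and 0.0848 ± 0.0171% in JG80-84 (SD, n = 5 each). The 10 genes higher in JG80-84 took 0.0523 ± 0.0348% in JG74-78 and 0.480 ± 0.127% in JG80-84. Nfu_g_1_007386 alone made up 0.0329 ± 0.0351% in JG74-78 and 0.382 ± 0.120% in JG80-84. Without it, the other genes of this direction took 0.0194 ± 0.00572% in JG74-78 and 0.0980 ± 0.00786% in JG80-84. The members thus accounted for a small part of the counted reads in every library.

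**Figure D3:**
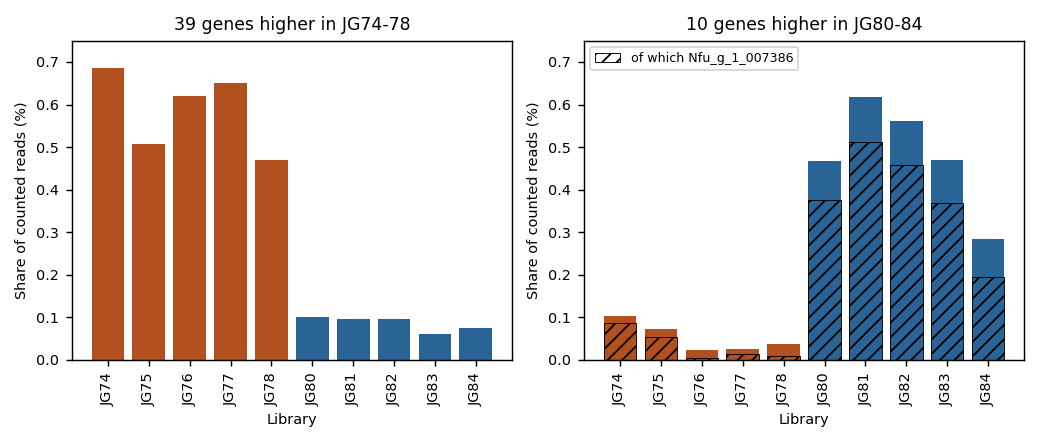
Share of counted reads, in percent, taken by the 39 genes higher in JG74-78 (left) and by the 10 genes higher in JG80-84 (right) in each library. Orange bars are JG74-78, blue bars are JG80-84, and hatching marks Nfu_g_1_007386. The left bars run from 0.469 to 0.686% in JG74-78 and from 0.0606 to 0.101% in JG80-84, and Nfu_g_1_007386 makes up most of each JG80-84 bar on the right.

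Because the rule uses all 10 libraries, it was also applied to 9 libraries at a time and the value of the library left out was read afterwards. The scaling and the minimum CPM of all 10 libraries were kept for this. Without JG74 the rule picked 64 genes, and JG74 lay nearer the mean of the other JG74-78 libraries than that of JG80-84 in 56 of them (87.5%). The share was 90.8% of 65 genes for JG75, 96.2% of 52 for JG76, 98.2% of 55 for JG77 and 92.6% of 68 for JG78. For JG80-84 it was 81.2% of 80 genes for JG80, 87.3% of 63 for JG81, 95.0% of 60 for JG82, 98.0% of 51 for JG83 and 90.8% of 65 for JG84. Over all 14013 genes, the left-out library was nearer its own set in 56.8% (JG80) to 73.8% (JG82) of genes. These shares include the 49 members in every round, which the rule on all 10 libraries had already placed.

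Over the 10 rounds, 91.2% of 623 picks lay nearer their own set, and 490 of the 623 were members. The rule requires each member to lie beyond every library of the other set, so the share is mostly fixed by the choice of members and says nothing of its own about stability. The 1 member pick nearer the other set was Nfu_g_1_007386 in JG74. Among the 133 picks that were not members, 79 (59.4%) lay nearer their own set, against a mean of 65.2% of all genes over the 10 libraries. These 133 are the picks whose gap was no more than 1 log2 unit once the left-out library was counted, so their share is not free of the left-out value either. JG80 accounted for 15 of the 55 picks nearer the other set, JG74 and JG81 for 8 each, and JG77 and JG83 for 1 each. The median position of a left-out library, on a scale from 0 at the mean of the other set to 1 at the mean of its own, ran from 0.797 for JG78 and 0.816 for JG80 to 1.07 for JG83. JG78, JG80 and JG75 (0.833) were the 3 lowest of the 10 on this scale. Picks that were not members were most numerous for JG80 (31) and JG78 (19). Such picks have a left-out value that narrows the gap, so low positions were partly built in and nothing is read from the order.

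**Figure D4:**
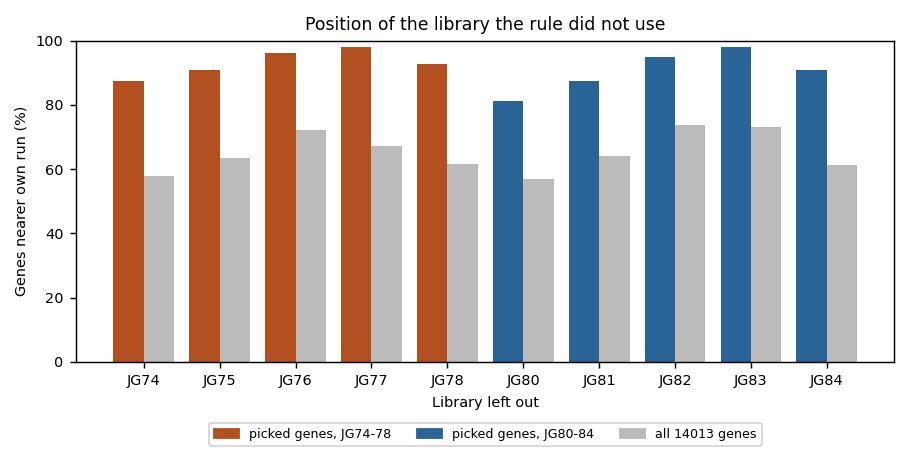
Percentage of genes in which the library left out lay nearer the mean of its own set (vertical axis, from 0 to 100) for each library (horizontal axis). Orange and blue bars are the genes picked from the other 9 libraries, for JG74-78 and JG80-84, and grey bars are all 14013 genes. The coloured bars include the 49 members in every round, so their height above the grey bars is mostly fixed by the rule, and JG80 is lowest at 81.2%.

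Within each set, certain libraries were the highest or lowest more often among the members than among all genes. Among the 39 genes higher in JG74-78, JG74 was the highest of its set in 18 and JG78 the lowest in 17 (43.6%, against 17.1% of all genes). JG74 was the highest of JG74-78 in 34.3% of all genes and in 46.2% of the 39. JG83 was the lowest of JG80-84 in 15 of the 39 (38.5%, against 14.5% of all genes). JG82 was the highest of JG80-84 in 13 of the 39 and in 5 of the 10 genes higher in JG80-84 (50%), against 17.4% of all genes. The rule limits how far a library may stray towards the other set, so these shares are not independent of it.

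With the means of JG74-78 and of JG80-84 removed, the median correlation between 2 members was 0.09, against 0.00 over all pairs of the 14013 genes (n = 10 libraries). It was 0.19 among the 39 genes higher in JG74-78 and 0.09 among the 10 higher in JG80-84, and -0.09 between the directions. Correlations above 0.8 were found in 27 of 1176 member pairs (2.30%), against 1.90% of all gene pairs. The share was 2.83% (21 of 741) among genes higher in JG74-78, 11.1% (5 of 45) among genes higher in JG80-84 and 0.256% (1 of 390) between the directions. Most member pairs thus did not follow the same course inside JG74-78 and JG80-84. Average-linkage grouping of these deviations at a height of 0.3, a grouping chosen after the values were seen, joined 6 genes at most. These were Nfu_g_1_011673, Nfu_g_1_011944, Nfu_g_1_020832, Nfu_g_1_020117, Nfu_g_1_009860 and Nfu_g_1_013968, all higher in JG74-78. Their median deviation was highest in JG82 (0.48 log2 units) and lowest in JG83 (-0.46). A second group of 5 held Nfu_g_1_007038, Nfu_g_1_010915, Nfu_g_1_012716, Nfu_g_1_015037 and Nfu_g_1_017453, with medians of 0.73 in JG74, -0.65 in JG75 and -0.71 in JG78.

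Position in the deposited table was a feature that the rule did not use. Of the 49 genes, 2 pairs stood on adjacent rows, and both pairs were higher in JG74-78. The sources used here give no coordinates for the row order, and whether such neighbours overlap and share reads cannot be told. Nfu_g_1_011673 and Nfu_g_1_011944 had log2 CPM of 8.58, 7.92, 8.19, 8.61 and 8.04 and of 7.33, 6.67, 6.91, 7.5 and 6.95 in JG74-78, against 6.14, 5.5, 6.33, 5.27 and 5.56 and 4.89, 4.41, 5.11, 4.01 and 4.32 in JG80-84. The pair followed the same course in all 10 libraries, with r = 0.98 and rho = 0.89 for the deviations from the means of JG74-78 and JG80-84, and r = 0.97 without JG80 and JG82. Of 8520 pairs of tested genes on adjacent rows, 54 (0.634%) had a higher correlation.

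Nfu_g_1_001407 and Nfu_g_1_001567 formed the other pair. Nfu_g_1_001567 had log2 CPM of 5.3, 3.76, 3.98, 3.61 and 4.65 in JG74-78 and 2.08, 1.87, 2.03, 1.83 and 2.29 in JG80-84. Its deviations correlated with those of Nfu_g_1_001407 at r = 0.79 and rho = 0.76, or 0.67 without JG74 and JG84, and 7.43% of adjacent pairs had a higher value. JG74 and JG78 were the high libraries in both genes. Nfu_g_1_002735 was followed on the next row by Nfu_g_1_002737, which was not a member but had the widest separation among the neighbours of members, with a gap of 0.84. Nfu_g_1_002737 had 3.73, 3.66, 3.45, 3.6 and 1.12 log2 CPM in JG74-78 and -1.09, -1.47, 0.28, -0.45 and -0.72 in JG80-84. It shared the drop in JG78 with Nfu_g_1_002735 (r = 0.83, rho = 0.66, or 0.60 without JG78 and JG80).

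**Figure D5:**
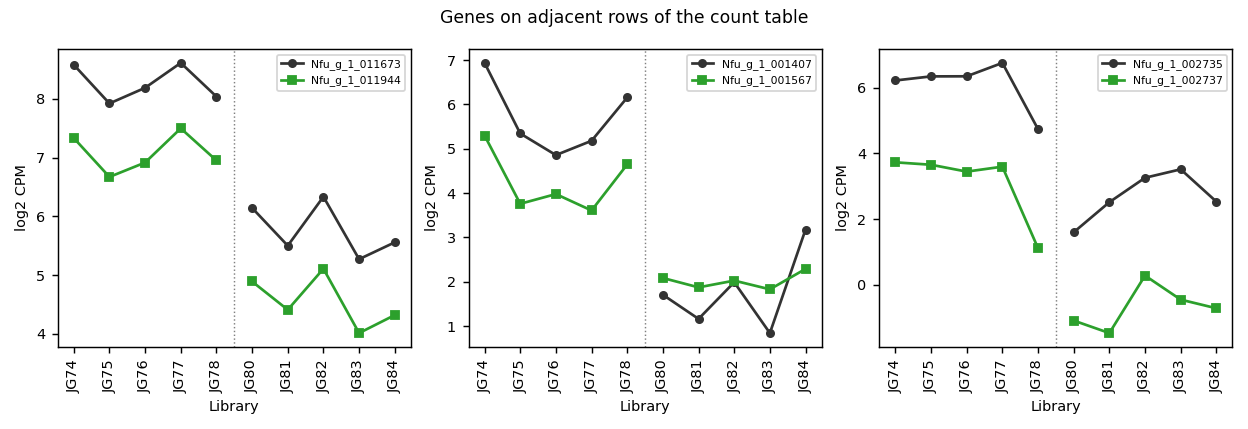
Log2 CPM of 3 pairs of genes on adjacent rows of the count table, by library in title order. Circles and squares are the genes of a pair, lines join libraries within JG74-78 and within JG80-84, and a dotted line marks the break. The lines of Nfu_g_1_011673 and Nfu_g_1_011944 run parallel throughout, while Nfu_g_1_002735 and Nfu_g_1_002737 both drop at JG78.

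Neighbours of members did not separate as a rule. Of 63 tested genes on the rows next to a member, other than members, 14 did not overlap between JG74-78 and JG80-84 (22.2%, against 16.2% of all genes). All 14 stood next to members higher in JG74-78, as did most of the 63 tested neighbours, so nothing is read from this. Of the 14, 9 were higher in JG74-78 themselves. Among all genes, 6.6% did not overlap and were higher in JG74-78, and 9.58% did not overlap and were higher in JG80-84. The difference from these shares was not tested. The median correlation of deviations between a member and its neighbour was 0.13, against 0.12 over all adjacent pairs. Close identifiers are a different matter from adjacent rows. Nfu_g_1_007904 and Nfu_g_1_007906, whose identifiers are 2 apart, stood on rows 1897 and 4260 and separated in opposite directions. Nfu_g_1_007904 had 3.91, 2.57, 3.4, 2.68 and 2.69 log2 CPM in JG74-78 and 0.89, 0.44, 1.47, 0.82 and 0.65 in JG80-84, against the reverse order in Nfu_g_1_007906 given above. Nfu_g_1_012716 and Nfu_g_1_012709, 7 apart, were both higher in JG74-78, and Nfu_g_1_012709 had 1.01, 0.86, 1.42, 0.88 and 0.97 in JG74-78 and -0.4, -0.3, -0.36, -0.21 and -0.45 in JG80-84.

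Gene length, as implied by the deposited counts and RPKM, was 3275 bp at the median of the 49, against 2885 bp over all genes, with 21 members below that overall median. The members ran from 684 bp in Nfu_g_1_022655 to 15798 bp in Nfu_g_1_018799. The 39 genes higher in JG74-78 and the 10 higher in JG80-84 had median lengths of 3275 and 3111 bp.

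At the limit of the rule, the members just inside were Nfu_g_1_013968, Nfu_g_1_009860 and Nfu_g_1_005533, with gaps of 1.003, 1.006 and 1.009 log2 units. The genes just outside were Nfu_g_1_005599, Nfu_g_1_012069 and Nfu_g_1_016571, with gaps of 0.994, 0.977 and 0.973. Nfu_g_1_009860 had 5.8, 5.31, 5.44, 5.61 and 5.03 log2 CPM in JG74-78 and 3.91, 3.67, 4.02, 3.51 and 3.52 in JG80-84. Nfu_g_1_005533 had 2.08, 1.69, 1.52, 2.72 and 1.13 in JG74-78 and -1.09, -0.77, -0.31, -0.52 and 0.13 in JG80-84. Nfu_g_1_005599 had -0.27, 0.69, 0.2, 0.24 and 0.36 in JG74-78 and 1.68, 2.06, 2.2, 2.01 and 2.27 in JG80-84, so genes on either side of the limit looked much alike. Nfu_g_1_012069 was higher in JG74-78 and Nfu_g_1_016571 was higher in JG80-84.

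How the libraries were scaled bears on the balance of the directions. With TMM, 39 members were higher in JG74-78 and 10 in JG80-84 (79.6% in JG74-78). With library totals alone, 49 genes again passed, but 26 were higher in JG74-78 and 23 in JG80-84 (53.1%), and 36 of them were the same genes. Median-ratio factors gave a balance close to that of TMM, with 40 genes higher in JG74-78 and 10 in JG80-84 (80%). The median difference of all genes, JG74-78 minus JG80-84, was 0.06 log2 units with TMM and -0.11 with library totals, a shift of -0.17. Each of the 49 members kept its direction and its separation without overlap with library totals. That outcome was fixed by the rule and says nothing of its own about stability. The TMM factors ran only from 0.872 to 1.12, too narrow a range to close a gap above 1 log2 unit. In raw counts, with no scaling at all, 27 of the 39 and 10 of the 10 did not overlap. The matching share of all genes was not taken. Raw counts also carry depth, from 13806555 reads in JG75 to 39405713 in JG81, so nothing is read from these 2 numbers. With a gap above 0.5 log2 units, 123 genes were higher in JG74-78 and 156 in JG80-84. The numbers in each direction also varied when single libraries were left out. Fewer libraries make the rule easier to pass, so a rise in these numbers is partly built in. With 1 library left out and the rest scaled and filtered anew, 34 to 51 genes were higher in JG74-78 and 9 to 30 in JG80-84. The numbers were 51 higher in JG74-78 and 30 higher in JG80-84 without JG80, 38 and 23 without JG75, and 41 and 20 without JG74. They were 42 higher in JG74-78 and 19 higher in JG80-84 without JG78, 44 and 17 without JG81, and 47 and 16 without JG84. Without JG76 they were 34 and 15, and without JG77 36 and 14. They were 46 and 11 without JG82, and 41 and 9 without JG83.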

How the data were processed

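The authors deposited whole-number read counts per gene and RPKM values for 26739 genes in 10 libraries. Per the submitters' processing notes, the tools were featureCounts 1.4.6-p4, STAR 2.4.1d and bcl2fastq 1.8.4. Libraries were made from total RNA with a TruSeq RNA kit, per the labels' protocols. The sources used here do not give the genome build, the annotation or the strand and overlap settings, so genes that overlap or have near-identical copies may share or lose reads. Deposited RPKM values implied 1 length per gene only if the 10 totals were applied in turn, gene by gene (median coefficient of variation 0.00122%, against 52.0% with each library's own total, over 3039 genes above 5 RPKM in every library). They were used for gene lengths only, and RPKM was recomputed from counts, lengths and own totals.

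Genes with at least 1 CPM in at least 5 libraries were kept (14013 genes, 99.8% of counts) and log2 CPM was computed with edgeR 4.0.16 (TMM, prior count 2) in R 4.3.3. The differences are on this log2 scale, which understates the fold of weak genes. JG74-78 and JG80-84 follow the numbers in the titles, and the labels give 1 group. Members and lists were chosen with earlier results of these data known. Library measures were compared by exact two-sided permutation (252 divisions) with Benjamini-Hochberg adjustment over 5 measures in Python 3.11.15. These p-values measure the spread between libraries, which may be technical. Genes named were the 10 widest in each direction, the 3 most abundant per length, those next to the limit and those with neighbouring identifiers, while Nfu_g_1_013968, Nfu_g_1_010700, Nfu_g_1_012402, Nfu_g_1_010915, Nfu_g_1_002735, the adjacent-row pairs and the members of the 2 groups were named after their values were seen. Marker lists for liver and other cell types could not be applied, since 0 of 26739 identifiers matched the 38438 genes of the reference table. Totals ranged from 13806555 to 39405713 counted reads, and 3 counts, the limit that a count of 0 allows, were 0.0761 to 0.217 CPM, for counting error only.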

Additional observations from a re-analysis of the deposited data

Results flagged for a closer look

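Among the 98 sets of 5 values (each member in JG74-78 and in JG80-84) and 5 library measures, 7 held 1 library far from the others by Dixon's criterion, which chance marks in about 1 of 20. All 7 were values of members (7.14% of 98), against 7.64% of the 28026 such sets over all genes, so members were marked about as often as genes at large. In JG74-78, Nfu_g_1_010915 was high in JG74, at 6.44 log2 CPM with the next library at 3.90, and Nfu_g_1_002735 was low in JG78, at 4.74 with the next at 6.22. Nfu_g_1_012709 was high in JG76, at 1.42 with the next at 1.01, and Nfu_g_1_020170 was high in JG74, at 0.54 with the next at 0.36. In JG80-84, Nfu_g_1_008031 was low in JG83, at 5.12 with the next at 6.70, and Nfu_g_1_018799 was low in JG80, at 5.25 with the next at 5.85. Nfu_g_1_006561 was high in JG80, at 3.73 with the next at 3.35.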

How the results depend on the processing

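The alternatives were fixed at the outset, except the minimum CPM applied after scaling (49 genes) and the rule on deposited RPKM, which were added later. The member count followed the limit, with 279 genes above 0.5, 16 above 1.5 and 6 above 2 log2 units. It stayed within 1.5 times of 49 under the other scalings, prior counts, filters and thinning (38 to 53), and 25 of the 49 members passed in all 17 settings that kept the limit of 1 and the counts. With 1 library left out and the rest scaled and filtered anew, it ran from 49 to 81, the highest without JG80. All 10 such rounds kept 39 of the 49 members. Leaving out a library cannot by itself narrow a member's gap, so members were lost only through the new scaling and filter. The 10 rounds are among the 17 settings, so both numbers of kept members are partly fixed by the choice of members. A rise in the member count or in genes without overlap is also partly built in, since fewer libraries make the rule easier to pass. Nfu_g_1_000583, Nfu_g_1_017453, Nfu_g_1_021153, Nfu_g_1_012709 and Nfu_g_1_000628 were lost whenever a library of JG74-78 was left out, and Nfu_g_1_007906 whenever one of JG80-84 was. The minimum of 5 libraries was then not met, since these weak members had passed it only through the set in which they were high. Genes without overlap then numbered 2363 to 3353. On deposited RPKM the rule gave 20 genes, 9 of them members, and 720 genes without overlap, and those values do not follow each library's own total. The share of reads in JG80-84 taken by genes higher in JG74-78 moved to 0.109% with median-ratio factors, 0.0603% with no filter and 0.103% after thinning, as the genes picked changed. With 1 library left out, genes higher in JG74-78 took 0.556 to 0.701% in JG74-78 and 0.0767 to 0.112% in JG80-84, and genes higher in JG80-84 took 0.0499 to 0.0951% in JG74-78 and 0.467 to 0.677% in JG80-84. The difference (JG74-78 minus JG80-84) then ran from -5324770 to 1965250 reads in depth, from -0.357 to 0.878% in the share of the 10 leading genes, from 36 to 301.8 in detected genes and from -0.121 to -0.0752 in the TMM factor. In the short-to-long level it ran from -0.17 to -0.10 log2 units. It passed the exact permutation test only without JG78 (adjusted p = 0.0397), with no adjustment over the libraries left out. Left-out picks nearer their own set made up 91.0 to 92.7% under 4 settings, members included. The choice of members mostly fixes this share, so its narrow range says nothing of its own about stability. No paired analysis was possible, since the labels link no library of JG74-78 to one of JG80-84. Depth limits the weakest members, such as Nfu_g_1_000583 with 4 reads in JG84.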
